A study of Mus musculus with 2 samples.

Results

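The miRNAs described here are those known to act on the DNA methylation machinery through 2 seeds: the miR-29 family, made from the hairpins Mir29a, Mir29b-1, Mir29b-2 and Mir29c, and the miR-148/miR-152 family, made from Mir148a, Mir148b and Mir152. They were chosen by name, as 7 of the 1174 mouse miRNA hairpins searched, and not by their measured values. Earlier results of these data were, however, known when they were chosen. The data came from J1 mouse embryonic stem (ES) cells, an established line adapted to gelatin and grown with leukaemia inhibitory factor (LIF). The treated cells received 1 mM AICAR, an activator of AMP-activated protein kinase, for 24 h, and the control cells received the same volume of DMSO for 24 h. Small RNA of each was sequenced as 1 library, so every comparison below is between 2 libraries. Intervals cover counting error only, and no spread between cultures could be estimated.

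A miRNA guides an Argonaute protein to messenger RNAs, mainly through bases 2 to 8 from its 5′ end, which are called the seed and pair with a site in the 3′ UTR of the target. Members of a family that share a seed can act on the same sites, so the summed amount of a seed (its dose) is given beside each miRNA. The miR-29 family is known to repress Dnmt3a and Dnmt3b, the enzymes that methylate DNA de novo, and also genes of the Tet and Tdg pathway that removes methylation. The miR-148/miR-152 family is known to repress Dnmt1, which copies methylation to the new strand after replication.

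All 7 hairpins had entries in the RefSeq table for GRCm38.p6. The mature 3p strands are shown first, 5′ to 3′ with the seed in capitals, because they carry nearly all of the reads and show which members share a seed.

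miR-29a-3p: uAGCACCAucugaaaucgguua

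miR-29b-3p: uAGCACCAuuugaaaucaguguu

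miR-29c-3p: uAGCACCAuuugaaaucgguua

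miR-148a-3p: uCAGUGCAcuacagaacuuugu

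miR-148b-3p: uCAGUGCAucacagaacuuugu

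miR-152-3p: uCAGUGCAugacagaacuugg

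With positions counted from 1 at the 5′ end, miR-29a-3p and miR-29c-3p differ by C10U alone. Over their common length, miR-29c-3p (22 nt) differs from miR-29b-3p (23 nt) by G18A, U21G and A22U. miR-148a-3p differs from miR-148b-3p by C9U and U10C. Over their common length, miR-148b-3p (22 nt) differs from miR-152-3p (21 nt) by C10G and U20G. None of these differences lies in a seed. No arm of any other hairpin searched had a reference tag with either seed.

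In the GENCODE annotation of GRCm38, the miR-29 hairpins form 2 pairs. Mir29a (chr6:31062660-31062747, minus strand) lies in no other annotated gene. Mir29b-1 (chr6:31063023-31063093, minus strand) lies 275 nt from it and overlaps an exon of the lincRNA gene Gm27019. The overlap is partial, as the full-length miR-29b-3p tag matched no Gm27019 transcript. Mir29b-2 (chr1:195037040-195037120) and Mir29c (chr1:195037547-195037634) lie 426 nt apart on the plus strand, both in exonic sequence of the noncoding gene A330023F24Rik and opposite exonic sequence of Cd46. The miR-148/miR-152 hairpins are scattered. Mir148a (chr6:51269812-51269910, minus strand) lies in no other gene, Mir148b (chr15:103285125-103285221, plus strand) in an intron of Copz1, and Mir152 (chr11:96850393-96850465, plus strand) in an intron of Copz2, which code for related coatomer subunits.

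The libraries held 18870345 clean reads (DMSO) and 21091226 clean reads (AICAR). Values are reads per 1000000 clean reads (RPM), and 1 read was 0.0530 RPM under DMSO and 0.0474 RPM under AICAR. Where a pair of values is given, the DMSO library comes first. Reads assigned to miRNA arms were 11.5% of the DMSO and 15.7% of the AICAR library. A fold per clean read is therefore multiplied by 0.734, a shift of -0.45 on the log2 scale, when it is expressed per read assigned to a miRNA. This change of denominator takes the folds of miR-29a-3p, miR-152-3p and the summed miR-29 dose from above 1 to below 1. The median fold of the 509 arms tested, each of which reached 1 RPM in a library, was 1.10 per clean read and 0.805 per miRNA read. The ES cell label was checked on miRNAs of the miR-290 cluster, whose 6 listed members were all read and summed to 29473 RPM (DMSO) and 50105 RPM (AICAR). Of 4 fibroblast or feeder markers, 3 were read, with sums of 199 and 203 RPM, and miR-214-3p had no assigned read. Both neural markers were read (271 and 421 RPM, mostly miR-124-3p), as were both muscle markers (157 and 203 RPM, mostly miR-1a-3p, with miR-133a-3p under 1 RPM). The liver marker miR-122-5p was at 2.92 and 25.4 RPM, and the erythroid marker miR-451a was under 1 RPM in both. The part of such RNA in the results below was not tested.

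The summed dose of the miR-29 seed was larger in the AICAR library when counted per clean read. It was 6359 reads (337 RPM) under DMSO and 9451 reads (448 RPM) under AICAR, a fold of 1.33 with a 95% exact binomial interval of 1.29 to 1.37, but per read assigned to a miRNA the fold was 0.976 (0.945 to 1.01). In other terms, the miR-29 seed held 0.293% of the miRNA reads under DMSO and 0.286% under AICAR. Relative to the median of the 509 arms tested, the fold of the miR-29 dose was 1.21, and 33% of the arms tested had a larger fold.

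The summed dose of the miR-148/miR-152 seed was close to the same share of clean reads in both libraries, and its direction depended on how it was counted. It was 3584 reads (189.9 RPM) under DMSO and 3986 reads (189 RPM) under AICAR, a fold of 0.995 (0.951 to 1.04). Per miRNA read the fold was 0.730 (0.698 to 0.764), while it was 1.21 (1.15 to 1.27) when only tags of at least 21 nt were counted. Relative to the median of all arms tested it was 0.907.

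The ratio between both doses does not depend on the denominator. There were 1.77 miR-29 reads for each miR-148/miR-152 read under DMSO and 2.37 under AICAR, a change of 1.34-fold (1.26 to 1.41). Counted over reads of full length only, those that end within 1 nt of the RefSeq 3′ end, the change in the ratio was 1.12-fold (1.05 to 1.19).

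**Figure D1:**
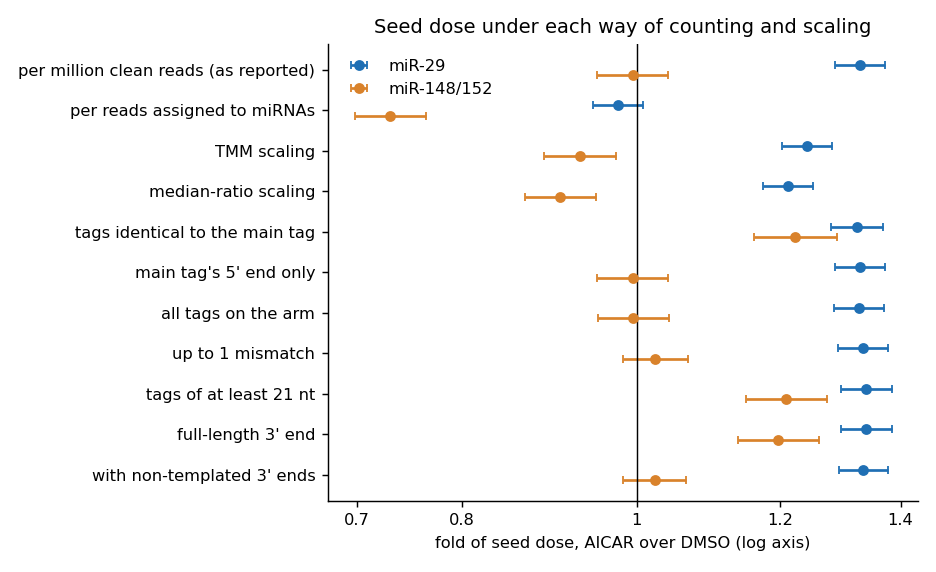
Fold of the summed seed dose, AICAR over DMSO library (log axis), for miR-29 (blue) and miR-148/miR-152 (orange) under each way of counting and scaling, with 95% counting intervals. The miR-29 fold lies between 1.21 and 1.34 except per miRNA read (0.976), and the miR-148/miR-152 fold runs from 0.730 to 1.22 across the vertical line at 1.

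Of the 12 member arms with reads, 7 reached 1 RPM and entered the comparison across arms. None reached a fold of 2 when all assigned reads were counted, against 12% of all arms tested, but miR-29b-3p reached 2.04 with tags of at least 21 nt and 2.12 over full-length reads. None was at or under a fold of 0.5, against 10.2% of all arms. Per clean read, the counting interval lay above 1 for 4 member arms (38.7% of all arms tested) and below 1 for 1 (27.1%), and per miRNA read it lay above 1 for 1 (18.9%) and below 1 for 5 (51.3%). The median fold of the 7 arms was 1.15, with a range of 0.845 to 1.93, beside 1.10 for all arms.

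miR-29a-3p made up most of the miR-29 dose and ranked 54 (DMSO) and 55 (AICAR) of 509 arms by level. It had 5755 reads (305 RPM) under DMSO and 8191 reads (388 RPM) under AICAR, a fold of 1.27 (1.23 to 1.32) per clean read but 0.935 (0.903 to 0.967) per miRNA read. Its direction was thus set by the denominator. miR-29c-3p had 490 reads (25.97 RPM) under DMSO and 1058 reads (50.2 RPM) under AICAR, a fold of 1.93 (1.73 to 2.16). This was the largest fold of the 7 arms tested when all assigned reads were counted, 13% of all arms tested had a larger one, and it stayed above 1 per miRNA read (1.42, 1.27 to 1.58). Its rank by level went from 176 to 138. miR-29b-3p, whose sequence is the same from Mir29b-1 and Mir29b-2 so that the source hairpin could not be told apart, had 204 reads (10.8 RPM) and 317 reads (15.0 RPM). Its fold was 1.39 (1.16 to 1.67) per clean read and 1.02 (0.853 to 1.22) per miRNA read, and per clean read it was 2.12 (1.61 to 2.80) over full-length reads.

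Within the miR-29 dose, miR-29c-3p gained share. miR-29a-3p supplied 89.2% of the dose under DMSO and 85.5% under AICAR (odds ratio 0.718, 0.650 to 0.792). miR-29c-3p supplied 7.71% and 11.2% (odds ratio 1.505, 1.34 to 1.69). miR-29b-3p supplied 3.14% and 3.33% (odds ratio 1.06, 0.884 to 1.28), but over full-length reads it supplied 1.22% and 1.94% (odds ratio 1.60, 1.22 to 2.13). Over full-length reads the odds ratios of miR-29a-3p (0.653) and miR-29c-3p (1.497) were on the same side of 1 as over all reads.

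**Figure D2:**
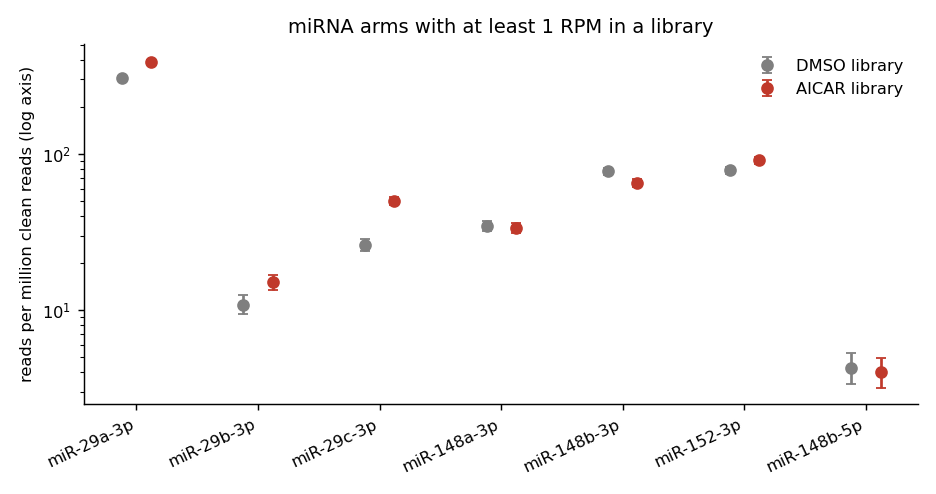
Level of each member arm with at least 1 RPM in a library, in RPM on a log axis, with exact binomial 95% intervals. miR-29a-3p is the highest in both libraries (305 and 388 RPM), miR-29c-3p shows the widest gap on this axis (25.97 and 50.2 RPM), and miR-148b-5p is the lowest (4.24 and 3.98 RPM).

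In the miR-148/miR-152 family, miR-152-3p and miR-148b-3p were near one another in the DMSO library and apart in the AICAR library when all reads were counted, but not over full-length reads. miR-152-3p had 1484 reads (78.6 RPM) and 1913 reads (90.7 RPM), for a fold of 1.15 (1.08 to 1.24) per clean read but 0.847 (0.791 to 0.907) per miRNA read. miR-148b-3p had 1455 reads (77.1 RPM) and 1374 reads (65.2 RPM), for a fold of 0.845 (0.784 to 0.910) that was 0.620 per miRNA read and turned to 1.42 (1.28 to 1.58) per clean read when only tags of at least 21 nt were counted. miR-148a-3p had 650 reads (34.5 RPM) and 707 reads (33.5 RPM), with a fold of 0.973 (0.874 to 1.08) that could not be told from 1 and was 0.714 (0.641 to 0.796) per miRNA read. By share of the dose over all reads, miR-152-3p went from 41.3% to 47.9% (odds ratio 1.31, 1.19 to 1.43), miR-148b-3p from 40.6% to 34.4% (odds ratio 0.769, 0.700 to 0.845) and miR-148a-3p from 18.1% to 17.7% (odds ratio 0.970, 0.861 to 1.09). In the DMSO library the intervals of the shares of miR-152-3p (39.7% to 43.0%) and miR-148b-3p (39.0% to 42.2%) overlapped, and in the AICAR library they did not. Over full-length reads the share of miR-148b-3p turned to a gain, from 22.5% to 26.6% (odds ratio 1.25, 1.11 to 1.41), and that of miR-152-3p was 55.6% and 54.3%, within counting error of one another (odds ratio 0.951, 0.857 to 1.05). miR-148a-3p went from 21.9% to 19.03% (odds ratio 0.836, 0.736 to 0.9504).

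**Figure D3:**
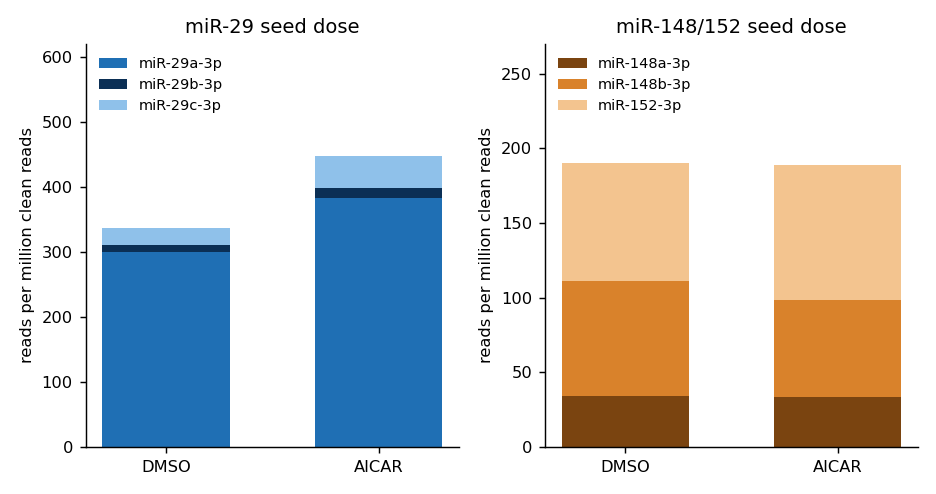
Summed seed dose of miR-29 and of miR-148/miR-152 in each library, in RPM, stacked by the 3p arm that supplied the reads. The miR-29 bar is 337 RPM (DMSO) and 448 RPM (AICAR), but the larger AICAR dose is not seen per miRNA read (fold 0.976), and the miR-148/miR-152 bar is 189.9 and 189 RPM with a larger miR-152-3p part in AICAR over all reads but not over full-length reads (odds ratio 0.951).

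The 5p strands are the passenger side of these hairpins and were rare, apart from that of Mir148b. miR-148b-5p had 80 reads (4.24 RPM) under DMSO and 84 reads (3.98 RPM) under AICAR, a fold of 0.939 (0.683 to 1.29), or 0.690 (0.501 to 0.949) per miRNA read. It made up 5.21% (4.15 to 6.44) and 5.76% (4.62 to 7.08) of the reads of Mir148b, with an odds ratio of 1.11 (0.801 to 1.54) that became 0.662 (0.473 to 0.927) when only tags of at least 21 nt were counted. The other 5p arms held 1 to 8 reads a library where they were read: miR-29a-5p 3 and 5, miR-29b-1-5p 3 and 7, miR-29b-2-5p 1 and 1, miR-29c-5p 5 and 8, and miR-148a-5p 3 and 1. No difference of these was detectable at this depth. miR-152-5p had no read in either library, where 3 reads would have been 0.159 RPM (DMSO) and 0.142 RPM (AICAR). Of the reads of Mir152 on both arms, this allows a 5p share of up to 0.248% (DMSO) and 0.193% (AICAR) by the exact interval.

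**Figure D4:**
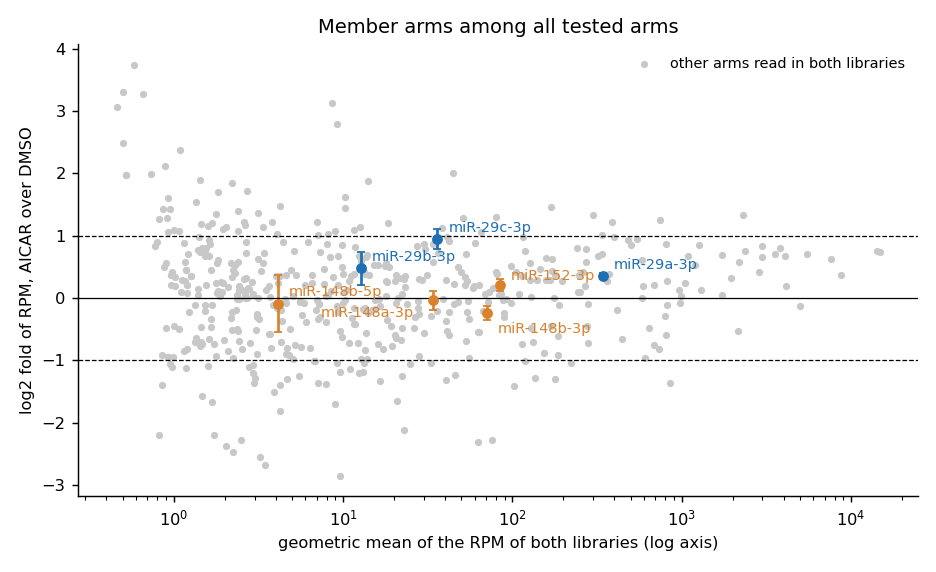
Log2 fold of RPM (AICAR over DMSO library) against the geometric mean RPM (log axis) for the tested arms read in both libraries, with miR-29 arms in blue, miR-148/miR-152 arms in orange, their 95% counting intervals as bars, and dashed lines at folds of 0.5 and 2. The 7 member arms lie between the dashed lines (0.845 to 1.93), and per miRNA read every point moves down by 0.45, which takes miR-29a-3p and miR-152-3p below 0.

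The 5′ ends, which set the seed, were nearly fixed. Of the reads of each 3p arm, 98.0% to 100% started at the RefSeq first base in both libraries. The main exception was a miR-29a-3p tag that starts 1 base earlier (ctagcaccatctgaaatcggtta, 56 and 69 reads) and so has another seed. Such reads were left out of the dose.

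The 3′ ends varied, and in miR-148b-3p they differed between the libraries. The 2 main tags of miR-148b-3p are shown with the seed in capitals. They share their first 18 bases.

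miR-148b-3p, 22 nt: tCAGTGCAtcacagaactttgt

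miR-148b-3p, 18 nt: tCAGTGCAtcacagaact

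The 22-nt tag, which is the RefSeq sequence, had 537 reads (28.5 RPM) under DMSO and 871 reads (41.3 RPM) under AICAR, a fold of 1.45 (1.30 to 1.62), or 1.07 (0.955 to 1.19) per miRNA read. The 18-nt tag had 632 reads (33.5 RPM) and 312 reads (14.8 RPM), for a fold of 0.442 (0.384 to 0.507), or 0.324 (0.282 to 0.372) per miRNA read. The shorter form was thus lower in the AICAR library by either denominator, the longer form was higher per clean read but not beyond counting error per miRNA read, and the shorter one was the more abundant of both in the DMSO library alone. Over all reads with the RefSeq first base, those that lacked at least 2 bases of the RefSeq 3′ end were 871 of 1454 (59.9%, 57.3 to 62.4) under DMSO and 447 of 1372 (32.6%, 30.1 to 35.1) under AICAR, an odds ratio of 0.324 (0.276 to 0.378). Each of these tags matched no annotated transcript other than Mir148b. Because 18 nt is the shortest tag in the files, forms shorter still were not measured.

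miR-29b-3p also had a shortened form. Its 2 main tags are shown with the seed in capitals.

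miR-29b-3p, 23 nt: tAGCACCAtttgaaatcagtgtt

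miR-29b-3p, 20 nt: tAGCACCAtttgaaatcagt

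The 23-nt tag, the RefSeq sequence, had 55 and 147 reads (2.92 and 6.97 RPM), a fold of 2.39 (1.74 to 3.32), or 1.76 (1.28 to 2.44) per miRNA read. The 20-nt tag had 109 reads in each library, a fold of 0.895 (0.680 to 1.18), or 0.657 (0.499 to 0.864) per miRNA read. Shortened reads were 62.0% (54.9 to 68.8) of miR-29b-3p under DMSO and 42.5% (37.0 to 48.2) under AICAR. Both tags also lie in the host transcript A330023F24Rik, as any product of Mir29b-2 does.

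The other 3p arms were shortened less often. The share was 12.3% and 5.97% for miR-148a-3p, 2.63% and 1.15% for miR-152-3p, 0.318% and 0.0866% for miR-29a-3p, and 0.612% and 0.379% for miR-29c-3p, in the DMSO and AICAR library in turn. Shortening was less frequent in the AICAR library for many miRNAs. Of 227 arms with a RefSeq sequence and at least 100 reads in each library, 191 (84.1%) had the smaller share in the AICAR library and 31 the larger, and the median share was 5.20% and 3.27%. Reads under 21 nt were 9.34% of the miRNA reads of the DMSO and 3.76% of those of the AICAR library. Among the 227 arms, 11 had a larger share of shortened reads than miR-148b-3p in the DMSO library, and the odds of a shortened read fell further than those of miR-148b-3p in 42. The part of RNA quality or library construction in these differences was not tested.

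**Figure D5:**
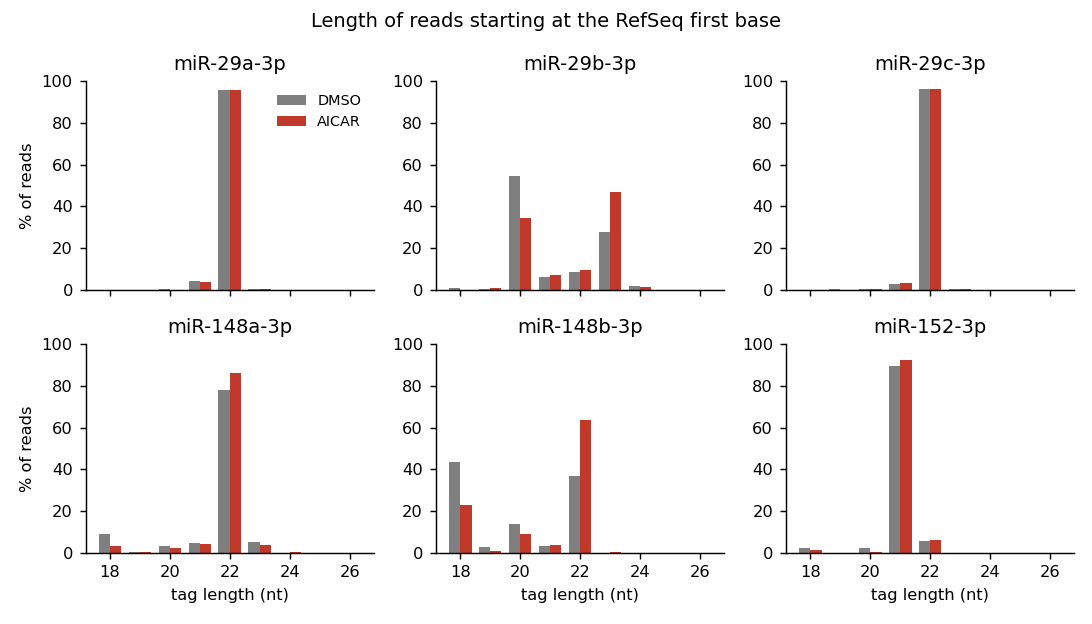
Length of the reads of each 3p arm that start at the RefSeq first base, as a percentage of those reads, in the DMSO (grey) and AICAR (red) library. miR-148b-3p has peaks at 18 nt and 22 nt and miR-29b-3p at 20 nt and 23 nt, with the shorter peak higher in DMSO, while miR-29a-3p, miR-29c-3p and miR-152-3p each have 1 main length.

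Reads with bases added after the part that matches the hairpin (non-templated ends) were counted apart. They were most frequent in miR-152-3p, whose main form of this kind ends with an added U, in capitals here as T.

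miR-152-3p with 1 added base: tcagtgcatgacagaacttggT

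This tag had 526 reads (27.9 RPM) under DMSO and 620 reads (29.4 RPM) under AICAR. Reads with only uracils added were 630 of 2138 reads (29.5%, 27.5 to 31.5) and 718 of 2680 reads (26.8%) of miR-152-3p, an odds ratio of 0.876 (0.771 to 0.996). The number of other arms with a larger share of added uracil was 11 (DMSO) and 15 (AICAR) of 238 arms, and the median share over these arms was 1.87% and 2.99%. In miR-148b-3p the share was 6.89% (111 reads) and 11.5% (187 reads), and 55 (DMSO) and 42 (AICAR) of the 238 arms had a larger one. But over reads of full length and their uracil forms alone, the share of miR-148b-3p was 15.8% and 16.7%, with an odds ratio of 1.08 (0.825 to 1.41). The close relative miR-148a-3p had 1 read with added uracil in each library. In the miR-29 family the share was 0.245% and 0.416% for miR-29a-3p and 1.202% and 0.743% for miR-29c-3p, and miR-29b-3p had none. Added uracil, as counted, was thus frequent in miR-152-3p, less so in miR-148b-3p, and under 2% in the other 4 arms. A U after the full-length end matches the hairpin for miR-29a-3p, miR-29c-3p and miR-29b-3p from Mir29b-2. Such a U counts as templated, so the shares of the miR-29 arms cannot be set against those of the miR-148/miR-152 arms.

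The 3′ UTRs of 9 DNA methylation genes were searched for matches to both seeds, as a description of sequence with no measure of binding. The motif TGGTGCT pairs with the miR-29 seed and occurs on the sense strand of the longest annotated 3′ UTR of 13.1% of 21020 genes, and TGCACTG pairs with the miR-148/miR-152 seed and occurs in 12.7%. Followed by A, the shares were 2.85% and 3.59%. The motifs do not overlap one another in these 9 UTRs, although a pair of TGCACTG matches in Tdg overlap by 2 bases. These shares are over UTRs of all lengths, and the 9 genes include known targets of both families. The counts below are therefore not a test of enrichment.

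The miR-29 motif was found in 6 of the 9 genes. The longest 3′ UTR of Dnmt3a (6696 nt) held 5 matches, 2 of them followed by A, and that of Dnmt3b (1331 nt) held 1. Among the genes of methylation removal, the 3′ UTR of Tet1 (7962 nt) held 7, Tet2 (3058 nt) 5 and Tet3 (5669 nt) 8, all of which code for enzymes that oxidise 5-methylcytosine. Tdg (2079 nt), the glycosylase that excises the oxidised base, held 3. Dnmt1, Dnmt3l, the catalytically inactive partner of the de novo enzymes, and Uhrf1, which brings Dnmt1 to replicated DNA, held none. Their longest 3′ UTRs (312, 273 and 984 nt in turn) were all shorter than those with a match. The miR-148/miR-152 motif was found in 3 of the 9: once in Dnmt1 (312 nt), once in Uhrf1 (984 nt) and at 2 positions in Tdg. The matches followed by A in Dnmt3a, Dnmt1 and Uhrf1 and the only match in Dnmt3b are shown as the sites that link both seeds to the methyltransferases and Uhrf1, with the motif in capitals, each in the last exon and read from the coding strand in GRCm38.

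Dnmt3a for miR-29, chr12:3911405-3911411, plus strand: cccaggggaggtagcTGGTGCTa

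Dnmt3a for miR-29, chr12:3911474-3911480, plus strand: agcggggtcccaagcTGGTGCTa

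Dnmt3b for miR-29, chr2:153686627-153686633, plus strand: tagagtagcccggcaTGGTGCTc

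Dnmt1 for miR-148/miR-152, chr9:20907492-20907498, minus strand: acccagagccccacgTGCACTGa

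Uhrf1 for miR-148/miR-152, chr17:56323115-56323121, plus strand: ctggttttcagagagTGCACTGa

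The messenger RNAs of these genes were not measured in these libraries.

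Other miRNAs linked to DNA methylation were taken from a list of 10, chosen with earlier results of these data known. It holds miR-291a-3p, miR-294-3p and miR-295-3p of the same cluster and miR-26a-5p and miR-26b-5p of the same family. Its counts are therefore not of independent members, and they describe the list without testing it. The interval of the fold lay above 1 for 7 of the 10 and below 1 for none per clean read. Of all arms tested it did so for 38.7% and 27.1%. Per miRNA read it lay above 1 for 5 and below 1 for 5, beside 18.9% and 51.3% of all arms. The median fold of the list was 1.504 per clean read and 1.10 per miRNA read, beside 1.10 and 0.805 for all arms. Those linked to the Tet genes and Tdg were miR-22-3p (551 reads, 29.2 RPM, and 1208 reads, 57.3 RPM), with a fold of 1.96 (1.77 to 2.17), miR-26b-5p (208 and 357 RPM) with 1.72 and miR-26a-5p (219 and 282 RPM) with 1.29, which was 0.946 per miRNA read. Of those linked to Dnmt1, miR-185-5p (964 and 1141 RPM) had a fold of 1.18, which was 0.869 per miRNA read, miR-342-3p (174.9 and 175.6 RPM) one of 1.00 (0.958 to 1.05), which was 0.737 per miRNA read, and miR-126a-3p had 24 and 14 reads. miR-143-3p, linked to Dnmt3a, was at 101 and 94.9 RPM, a fold of 0.942 (0.884 to 1.00) that was 0.691 per miRNA read. The miR-290 cluster members, which act on the methyltransferases by way of the transcriptional repressor Rbl2, were all higher under AICAR: miR-291a-3p at 482 and 1147 RPM (2.38-fold), miR-294-3p at 2896 and 5028 RPM (1.74-fold) and miR-295-3p at 2237 and 3981 RPM (1.78-fold), with folds of 1.75, 1.27 and 1.31 per miRNA read. Rbl2 itself was not measured in these libraries. By real-time PCR, the authors described it as increased in their Results and as not clearly changed in their Discussion. miR-294-3p and miR-295-3p were the most abundant of the list, and miR-291a-3p was the one miRNA of the list with a fold of 2 or more.

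Among arms with at least 100 RPM in a library, those whose log2 fold was nearest to the miR-29 dose were miR-191-5p (2465 and 3284 RPM, 1.33-fold) and miR-1981-5p (226 and 302 RPM, 1.34-fold). Those nearest to the miR-148/miR-152 dose were miR-192-5p (581.1 and 580.2 RPM, 0.998-fold) and miR-342-3p. Likeness was measured over 2 libraries, as the difference of log2 folds.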

How the data were processed

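Small RNA of J1 mouse ES cells was sequenced in 2 libraries, 1 treated with DMSO and 1 with 1 mM AICAR. The authors selected RNA of about the miRNA size range, removed low-quality and adaptor reads, collapsed the clean reads into tags and deposited the length, the count of reads and the sequence of each tag, without normalization. The mouse build mm9 is named in the submitters' processing notes with no stated role, and no alignment was used here.

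Tags were matched with 0 mismatches to 1174 GENCODE (release M21, GRCm38) miRNA hairpins. The most abundant tag of each arm over both libraries was its reference, and a tag was assigned if its start lay at most 2 nt and its end at most 4 nt from it. Arms with the same reference tag were merged, which left 1146 arms with reads, and a tag that fitted several arms was counted for each. RefSeq named 905 of them, and the others are called by their hairpin in the calculations. The seed dose counted each tag of the 3p arms once, if bases 2 to 8 were the seed. A tag was called shortened if it lacked at least 2 bases of the RefSeq 3′ end and of full length if it ended within 1 nt of it. Non-templated ends were 1 to 3 bases after at least 18 templated bases.

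Folds are AICAR over DMSO RPM with exact conditional binomial 95% intervals, shares have exact Clopper-Pearson intervals, and odds ratios are conditional with exact intervals. Reads carry no molecular identifiers, so intervals and floors (3 reads) cover counting error only. With 1 library per condition, the comparison is of libraries and no p-value was given. Python 3.11.15 with scipy 1.17.1, and R 4.3.3 with edgeR 4.0.16 (TMM scaling) and DESeq2 1.42.0 (median-ratio scaling) were used. The matching was tested on simulated random hairpins, and the intervals on simulated counts with counting error only. Variation between cultures was not part of these tests. The genes named are all member arms, a list of 10 other miRNAs linked to DNA methylation, a list of cell type markers, and the 2 arms with the nearest fold for each seed. Members and lists were chosen with earlier results of these data known. Denominators, scalings, tag rules and filters were varied.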

Additional observations from a re-analysis of the deposited data

Results flagged for a closer look

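Reads with non-templated ends were left out of the seed doses as reported, and among them 5 signals were higher per clean read in the AICAR than in the control library, 3 of them with added adenine and 2 with added uracil. They are those, among all 3p member arms and kinds of added base counted, whose fold interval lay above 1. The counts over 238 arms given below compare shares and not folds. miR-29a-3p reads with added uracil were 14 (0.742 RPM) under DMSO and 34 (1.61 RPM) under AICAR, a fold of 2.17 (1.14 to 4.38) that was 1.60 (0.834 to 3.22) per miRNA read, while their share of the reads of miR-29a-3p had an odds ratio of 1.70 (0.888 to 3.43). miR-148b-3p reads with added uracil were 111 (5.88 RPM) and 187 (8.87 RPM), a fold of 1.51 (1.18 to 1.92) that was 1.11 (0.870 to 1.41) per miRNA read. Over the 238 arms compared, the share of added uracil was larger in the AICAR library in 172 and smaller in 55. miR-29a-3p reads with added adenine were 22 (1.17 RPM) and 48 (2.28 RPM), a fold of 1.95 (1.16 to 3.40) that was 1.43 (0.848 to 2.49) per miRNA read, with an odds ratio of their share of 1.53 (0.903 to 2.66). miR-152-3p reads with added adenine were 14 (0.742 RPM) and 36 (1.71 RPM), a fold of 2.30 (1.21 to 4.62) that was 1.69 (0.889 to 3.39) per miRNA read, with an odds ratio of 2.06 (1.08 to 4.16). miR-29c-3p reads with added adenine were 2 (0.106 RPM) and 14 (0.664 RPM), a ratio of 6.26 (1.44 to 56.8) that was 4.60 (1.06 to 41.7) per miRNA read, with an odds ratio of 3.27 (0.747 to 29.8). Over the same 238 arms the share of added adenine was larger in the AICAR library in 158 and smaller in 76, with medians of 3.10% and 3.53%. With 1 library per condition, outliers within a group could not be looked for.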

How the results depend on the processing

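With 1 library per condition, neither leaving out a library nor a paired analysis was possible. Counts of 10 reads or fewer limit the 5p arms other than miR-148b-5p. The cause of the changes below was not tested. Per read assigned to a miRNA, the miR-29 dose was at 0.976, the miR-148/miR-152 dose at 0.730, miR-29a-3p at 0.935 and miR-152-3p at 0.847. With TMM and median-ratio scaling the miR-148/miR-152 dose was at 0.930 and 0.907, with intervals below 1. The miR-148/miR-152 dose was at 1.22 with tags identical to the reference tag, 1.02 with up to 1 mismatch, 1.21 with tags of at least 21 nt, 1.198 with full-length 3′ ends and 1.02 with non-templated ends. Full-length and non-templated counting, the shares of the dose by tag length, and RefSeq references, were chosen after seeing the data. Under identical tags, tags of at least 21 nt and full-length ends in turn, miR-148b-3p was at 1.45, 1.42 and 1.42 and miR-148a-3p at 1.07, 1.04 and 1.04. miR-29b-3p was at 0.895 with identical tags, because its reference tag is the more abundant 20-nt form. Its 23-nt RefSeq sequence was at 2.39. miR-148b-5p was at 1.04 with identical tags, 1.01 with the reference 5′ end and 1.02 with up to 1 mismatch, and its odds ratio against the 3p arm was 0.718 with identical tags and 0.662 with tags of at least 21 nt. The number of member arms past a fold of 2 was 1 with tags of at least 21 nt and 1 with full-length ends (miR-29b-3p in both, at 2.04 and 2.12), and 2 with no filter on low values (miR-29b-1-5p and miR-148a-5p, with 10 and 4 reads in all). miR-29c-3p stayed above 1 in all alternatives run, from 1.42 to 1.94. The odds ratios of the share of the seed dose, under tags of at least 21 nt and full-length ends in turn, turned to 1.24 and 1.25 for miR-148b-3p and to 0.967 and 0.951 for miR-152-3p. Of the alternatives, 87 kept direction and call, 24 had their value on the other side of 1, 10 crossed into a call and 2 lost one. Those 24 include changes within counting error, such as the miR-148/miR-152 dose with up to 1 mismatch (1.02, 0.983 to 1.07). Another 7 moved: 3 counts of arms past a fold of 2 changed by over 1.5 times, and 4 shares of reads with the RefSeq 5′ end left their counting interval, at 100% with tags of at least 21 nt.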
